A study of Cenchrus americanus with 9 samples.

Results

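In the roots of pearl millet, 95 of 19754 genes had their lowest level in crown roots, an intermediate level in primary roots and their highest level in lateral roots, with a clear gap at each step. The 19754 are the genes of the deposited table, called all genes below, for which the authors set a minimal count sum of 90. The 95 genes were chosen by their measured values. Every lateral root library had a normalised count of at least 100 and at least 2 times that of the highest primary root library, every primary root library had at least 2 times that of the highest crown root library, and each root type had at least 1 library above 0. The order of the root types and the separation of their libraries in these genes were therefore set by the selection. All 9 libraries and all comparisons entered it, so levels and steps are given as a description and no test of them is made.

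RNA-seq was performed on roots of Tift23DB, the reference genotype of the species. Plants were 15 days old and had grown in rhizotrons, flat boxes that open along a transparent face. Primary root tips (5 cm apex), crown root tips (5 cm apex) and the lateral roots carried by primary roots were collected, with 3 replicates of each root type, and each replicate pooled the roots of 3 plants. No apex length was stated for the lateral roots, so root type goes together with the stretch of root sampled and the 2 cannot be told apart. All plants shared this genotype and the labels name no treatment. The total of counts per library lay between 39739052 and 64062081.

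The primary root is the embryonic root of a cereal seedling, crown roots are formed after germination at the nodes of the shoot base, and lateral roots branch from other roots and make up much of the length of the root system that contacts the soil. A root apex contains the meristem, the zone of cell elongation and the start of the zone where cells differentiate and root hairs form, while a whole lateral root can also include older, differentiated tissue. In samples of whole roots, fewer cells of a type and less RNA per cell cannot be told apart. The deposited table identifies genes only by an ID and does not pair these IDs with gene names, and no annotation was used here, so no function is given for any gene below. For the same reason no markers of root tissues were checked.

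The 2 conditions of the selection were met by different numbers of genes. Counted among genes with at least 1 library above 0 in each root type, a gap of at least 2 times between lateral and primary roots, with the minimum of 100, was found in 519 genes, that is 2.63% of all genes. Counted in the same way, a gap of at least 2 times between primary and crown roots was found in 303 genes, or 1.53%. The 95 genes that met both, 0.481% of all genes, made up 18.3% of the former and 31.4% of the latter. With the 3 root types put in each of the 6 possible orders and the same conditions applied, 13 genes had the opposite order, with crown roots highest and lateral roots lowest, and 0 genes had any of the other 4 orders. The minimum of 100 then applied to the root type that was highest. Both orders that occurred had primary roots in the middle.

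Lateral root levels of the 95 genes covered a wide range. Their mean normalised count over the 3 replicates lay between 120 and 241046 in lateral roots, with a median of 1591. In primary roots the means lay between 20.0 and 22729, with a median of 297, and in crown roots between 1.06 and 2697, with a median of 49.6. Over all genes the median of the means was 682, 633 and 620 in lateral, primary and crown roots. The 95 genes thus lay above the median level of all genes in lateral roots and below it in both other root types, by their own medians. Ranked among all genes, their median percentile was 68.5 in lateral roots, 35.8 in primary roots and 14.3 in crown roots. In lateral roots 31 of them were in the highest decile of all genes, and in crown roots 0 were. In crown roots 34 were in the lowest decile and 63 in the lowest quartile. These values are not divided by gene length, so they rank genes by counts and not by transcript number.

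**Figure D1:**
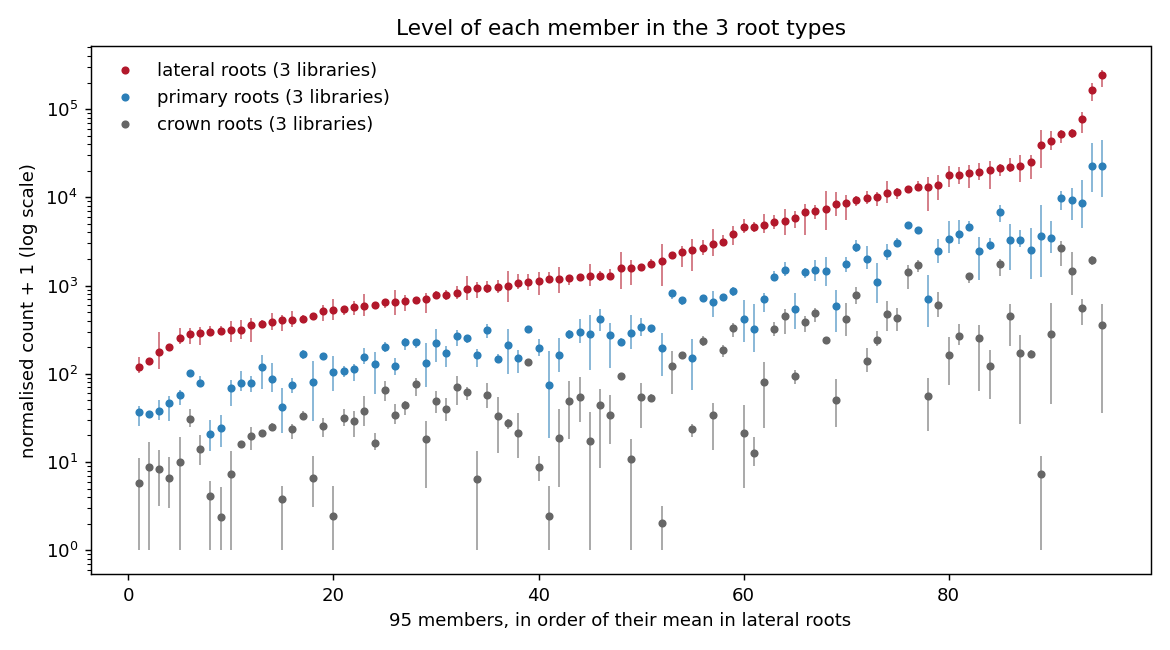
Normalised count + 1 (log scale) of the 95 genes in lateral, primary and crown roots, with genes placed in order of their lateral root mean. Points are means of 3 libraries and vertical lines run from the lowest to the highest library. The lines of the 3 root types do not overlap within any gene, as the selection required, and the crown root lines reach the bottom of the axis in the 14 genes with a crown root library at 0.

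The size of each step was measured as the difference of the root type means of log2(normalised count + 1), on which a difference of 1 is close to 2-fold for genes well above 1 count. From crown to primary roots the median step of the 95 genes was 2.65 (1.22 to 9.03), and from primary to lateral roots it was 2.28 (1.33 to 4.72). From crown to lateral roots the median difference was 4.92, with a range of 2.93 to 12.86. Over all genes the corresponding medians were 0.02, -0.00 and 0.02. The standard error of a step, from limma fitted to all genes and all 9 libraries, had a median of 0.37 on the log2 scale over the 95 genes and a range of 0.15 to 1.06. It uses 1 estimate of spread per gene for the 3 root types, so both steps of a gene have the same standard error. The replicate spread was not equal. Its median over the 95 genes (standard deviation, log2 scale) was 0.40 for lateral with primary roots and 0.59 for primary with crown roots. On the linear scale, the mean in lateral roots was a median of 4.76 times that in primary roots (2.53 to 19.0). It was above 5 times in 43 genes and above 10 times in 13.

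The genes that met only 1 of the 2 conditions differed widely in the other step. In the 424 genes that met the condition between lateral and primary roots only, the step from primary to lateral roots had a median of 2.12 and that from crown to primary roots a median of 0.61 (-3.30 to 5.78). In the 208 genes that met the condition between primary and crown roots only, the step from crown to primary roots had a median of 2.53 and that from primary to lateral roots a median of 0.32 (-4.91 to 2.95). These 208 include 5 genes that had both gaps and missed only the minimum of 100 in lateral roots. Without them the medians were 2.54 and 0.29. The condition that was not met bears on the other step, so its lower median is no finding.

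The step from crown to primary roots was the larger one in 64 of the 95 genes, and the step from primary to lateral roots in 31. In 57 genes the 2 steps differed by less than 1 standard error of their difference. This standard error had a median of 0.64 and takes into account that both steps share the primary roots. It rests on the same shared estimate of spread. The 2 steps differed by more than 1 on the log2 scale in 25 genes, in 20 of them with the larger step between crown and primary roots. The size of this imbalance changed with the pseudocount and with the library left out. With a pseudocount of 10 in place of 1, the step from crown to primary roots was the larger in 51 genes and its median, 2.14, fell under that of the step from primary to lateral roots, 2.25. Without primary replicate 2 the step from crown to primary roots was the larger in 50 genes, and without any other single library in 57 to 72.

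**Figure D2:**
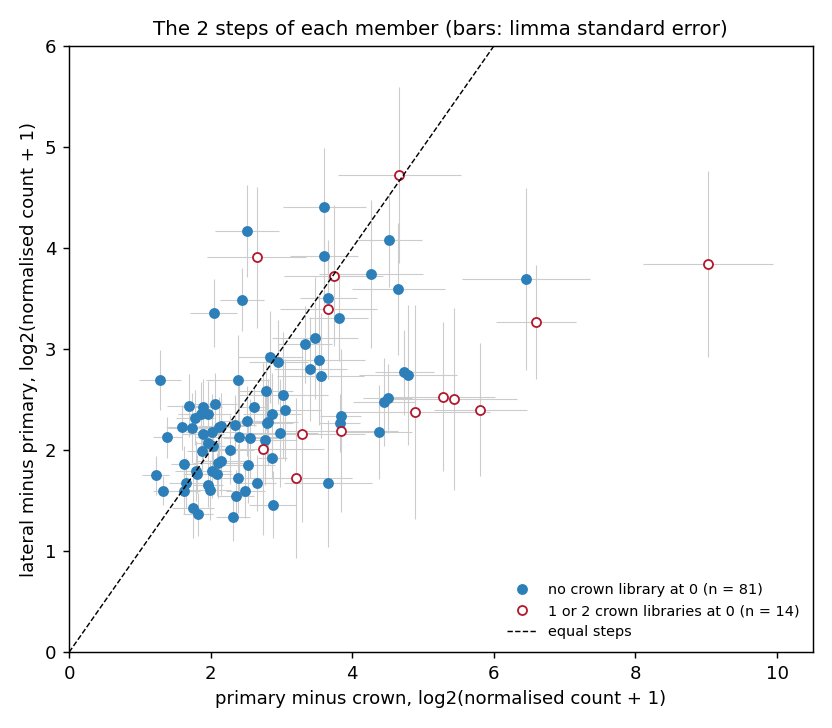
Step from crown to primary roots (horizontal axis) against step from primary to lateral roots (vertical axis), both as differences of mean log2(normalised count + 1), for each of the 95 genes. Bars are standard errors from limma, open red circles are the 14 genes with 1 or 2 crown root libraries at 0, and the dashed line marks equal steps. More genes lie below the dashed line than above it, 64 against 31, and the widest spread is along the horizontal axis, up to 9.03.

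Crown root libraries at 0 contributed to the widest steps. At least 1 crown root library was at 0 in 14 of the 95 genes, in 11 of them 1 library and in 3 of them 2, while 0 genes had a primary root library at 0. The crown root mean was under 10 in 17 genes and under 100 in 60. In the 81 genes with no crown root library at 0, the median step from crown to primary roots was 2.44 and that from primary to lateral roots 2.25, and the former was the larger in 52. In these 81 genes the mean in primary roots was a median of 5.55 times that in crown roots (2.34 to 64.2), and the mean in lateral roots a median of 22.97 times that in crown roots (7.58 to 681). The mean in lateral roots was above 10 times that in crown roots in 76 of them and above 50 times in 23.

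Genes with higher lateral root levels had wider steps. The 23 genes with a lateral root mean of at least 10000 had median steps of 3.33 from crown to primary and 2.75 from primary to lateral roots. The 35 genes from 1000 to under 10000 had 2.77 and 2.29, and the 37 genes under 1000 had 2.39 and 2.17. The median lateral root mean of these 3 classes was 20629, 2506 and 512, and the median crown root mean 423, 54.2 and 22.4. The genes with the highest lateral root levels were thus also higher in crown roots, although by a smaller factor. Lateral root levels enter both the classes and the step, so this order is given without a test.

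The widest difference between lateral and crown roots was found in Pgl_GLEAN_10015686. Its normalised count was 58235, 21429 and 36612 in lateral root replicates 1 to 3, 1513, 8254 and 1248 in primary root replicates and 8.36, 0 and 10.8 in crown root replicates. This gene was among the most abundant in lateral roots and nearly without counts in crown roots, and its primary root replicate 2 stood far above the other 2. On the log2(normalised count + 1) scale its step was 9.03 from crown to primary roots and 3.84 from primary to lateral roots, with a standard error of 0.92. Its difference of 12.86 between lateral and crown roots and its step of 9.03 between primary and crown roots were the highest of all 19754 genes on this scale, on which the value at 0 depends on the pseudocount.

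The highest lateral root levels were those of Pgl_GLEAN_10005675 and Pgl_GLEAN_10005676, which carry consecutive ID numbers. Pgl_GLEAN_10005675 had 277874, 177241 and 268024 normalised counts in lateral root replicates 1 to 3, 10139, 44572 and 13438 in primary roots, and 34.5, 624 and 404 in crown roots. Pgl_GLEAN_10005676 had 199006, 122875 and 170626 in lateral roots, 11517, 40994 and 15676 in primary roots, and 1718, 2135 and 1976 in crown roots. Both were lowest in lateral root replicate 2 and highest in primary root replicate 2, but in crown roots the former varied over more than 10 times and the latter was nearly constant. Their steps from crown to primary roots were 6.46 and 3.33, and from primary to lateral roots 3.70 and 3.05, with standard errors of 0.90 and 0.38. The highest lateral root mean of any gene was 246943, close to the 241046 of Pgl_GLEAN_10005675. These 2 genes made up 30.2% to 43.0% of the summed counts of the 95 genes in the lateral root libraries.

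Pgl_GLEAN_10030145 came next in lateral root level. Its counts were 93681, 53237 and 82662 in lateral roots, 4533, 15544 and 6077 in primary roots, and 710, 605 and 358 in crown roots. It had the same low lateral root replicate 2 and high primary root replicate 2, and steps of 3.81 and 3.30.

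Other genes with wide differences had low crown root levels. Pgl_GLEAN_10007394 had 993, 2935 and 1783 normalised counts in lateral roots, 212, 93.2 and 286 in primary roots and 0, 1.01 and 2.16 in crown roots. Its crown root level was the lowest among the 95 genes, and its lateral root replicates differed almost 3-fold, with a coefficient of variation of 51.3%. Its fitted steps were 6.60 from crown to primary and 3.27 from primary to lateral roots. The step of 6.60 rests on 3 counts in all in crown roots and depends on the pseudocount. Pgl_GLEAN_10024631 had 1060, 1064 and 1408 in lateral roots, 24.5, 181 and 17.8 in primary roots and 0, 0 and 4.32 in crown roots. Lateral root replicates were close to each other here, while primary root replicate 2 was 8.59 times the mean of the other 2, so that the primary root coefficient of variation, 124%, was the highest of the 95 genes. Its step from primary to lateral roots, 4.72, was also the highest, with a standard error of 0.87.

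Pgl_GLEAN_10003702 and Pgl_GLEAN_10011344 had no crown root library at 0. The former had 5231, 4572 and 3994 in lateral roots, 175, 611 and 184 in primary roots and 8.36, 8.12 and 18.4 in crown roots, with steps of 4.52 and 4.08. The latter had 4080, 3965 and 5663 in lateral roots, 331, 682 and 227 in primary roots and 13.6, 4.06 and 43.2 in crown roots, with steps of 4.65 and 3.60. The standard error of a step was 0.46 in the former and 0.65 in the latter.

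In 2 further genes with a wide step from primary to lateral roots, this step was the larger. Pgl_GLEAN_10012175 had 7016, 17136 and 15360 in lateral roots, 336, 1307 and 439 in primary roots and 52.3, 21.3 and 89.6 in crown roots. Its mean in lateral roots was 19.0 times that in primary roots, the highest ratio among the 95 genes, and its steps were 4.41 from primary to lateral and 3.60 from crown to primary roots. Pgl_GLEAN_10022550 had 1475, 3376 and 2667 in lateral roots, 64.1, 246 and 142 in primary roots and 23, 18.3 and 25.9 in crown roots. Its crown root replicates lay close together while its lateral and primary root replicates spread over more than 2 times, and its steps were 4.16 from primary to lateral and 2.51 from crown to primary roots. The reverse case was Pgl_GLEAN_10008528, with 472, 710 and 410 in lateral roots, 89.4, 160 and 63.5 in primary roots and 0, 0 and 4.32 in crown roots. Its steps were 5.81 from crown to primary and 2.40 from primary to lateral roots, with a standard error of 0.66.

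Of the 4 genes with the highest crown root means, Pgl_GLEAN_10005676, described above, had wide steps, 3.33 and 3.05. The other 3 had differences between lateral and crown roots below the median of the 95 genes. Pgl_GLEAN_10033153 had 41036, 58066 and 56797 in lateral roots, 7115, 11723 and 10415 in primary roots and 1666, 3186 and 3238 in crown roots, with steps of 1.89 and 2.43. Pgl_GLEAN_10005017 had 23028, 17657 and 23680 in lateral roots, 5272, 8207 and 7127 in primary roots and 2013, 1280 and 2024 in crown roots, with steps of 1.96 and 1.65. Pgl_GLEAN_10032436 had 12323, 15172 and 11762 in lateral roots, 4420, 4373 and 4090 in primary roots and 1827, 1925 and 1425 in crown roots. This last gene varied little among replicates, had the lowest standard error of the 95 genes, 0.15, and had the smallest difference between lateral and crown roots, 2.93.

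In 3 genes both steps were almost equal, at very different levels. Pgl_GLEAN_10007729 had 3745, 7431 and 4876 in lateral roots, 1390, 1268 and 1837 in primary roots and 281, 543 and 513 in crown roots, and steps of 1.79 and 1.80. Pgl_GLEAN_10025202 had 550, 687 and 696 in lateral roots, 197, 231 and 175 in primary roots and 82.6, 47.7 and 62.6 in crown roots, and steps of 1.66 and 1.68. Pgl_GLEAN_10002455, with steps of 3.74 and 3.72, had 280, 343 and 291 in lateral roots, 22.8, 33.4 and 14.0 in primary roots and 4.18, 0 and 0 in crown roots. Equal steps at this last gene rest on 1 crown root library above 0.

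Replicates of lateral roots differed most in Pgl_GLEAN_10036090, with 113, 294 and 127 normalised counts and a coefficient of variation of 56.8%, and in Pgl_GLEAN_10005669, with 11752, 6122 and 4276 and 52.7%. The library that stood apart was replicate 2 in the former and replicate 1 in the latter. The lowest lateral root variation, 1.80%, was found in Pgl_GLEAN_10033126, with 1220, 1250 and 1264, a gene chosen for mention after its values were seen. The median coefficient of variation of the 95 genes was 21.6% in lateral roots, 27.7% in primary roots and 36.3% in crown roots.

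Primary root replicate 2 stood apart in many of these genes. It was the highest primary root library in 58 of the 95 genes (61.1%), against 36.7% of all genes. This was not particular to the 95. The share was 57.2% in the 208 genes that met only the condition between primary and crown roots. In the 424 genes that met only the condition between lateral and primary roots it was 52.4%. In 23 of the 95 it was at least 2 times the mean of replicates 1 and 3, a pattern shown by 5.59% of all genes. Primary root replicate 1 was that far above the other 2 in 0 of the 95 genes, and replicate 3 in 2. Among crown root libraries, replicate 1 was that far above the other 2 in 6 genes, replicate 2 in 10 and replicate 3 in 21. The shares of all genes with these patterns in crown roots and in primary root replicates 1 and 3 were not counted. The crown root mean was under 10 in 17 of the 95 genes, where a ratio of 2 rests on few counts. The summed counts of the 95 genes made up 0.221%, 0.492% and 0.284% of the total of primary root replicates 1 to 3. Without the 2 most abundant genes these shares were 0.177%, 0.311% and 0.226%. The corresponding shares lay between 2.0% and 2.4% in lateral roots and between 0.0349% and 0.0482% in crown roots, so primary root replicate 2 was nearer to lateral roots than the other 2 primary root replicates, while far below any lateral root library. What part this library had in the steps was not tested, beyond its removal as given above.

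The 23 genes with this high replicate had wider steps, with medians of 3.66 from crown to primary and 3.39 from primary to lateral roots, against 2.38 and 2.17 in the other 72. The selection bears on the step from primary to lateral roots. A high single primary root library could pass only when every lateral root library was at least 2 times higher still. The high replicate also enters the primary root mean, and so the step from crown to primary roots. What either contributed to the wider steps was not tested. Lateral root replicate 2 was the lowest lateral root library in 13 of these 23 genes and in 10 of the other 72. Among all genes, the share with lateral root replicate 2 lowest was 23.6%, and 34.5% among the 1105 genes with the same high primary root replicate 2. In the 95 genes as a whole, lateral root replicate 2 was more often the highest, in 48 (50.5%, against 27.7% of all genes). The share was 46.7% in the 424 genes that met only the condition between lateral and primary roots. It was 23.1% in the 208 genes that met only the condition between primary and crown roots. Crown root replicate 3 was the highest crown root library in 41 of the 95 genes (43.2%, against 27.0% of all genes).

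**Figure D3:**
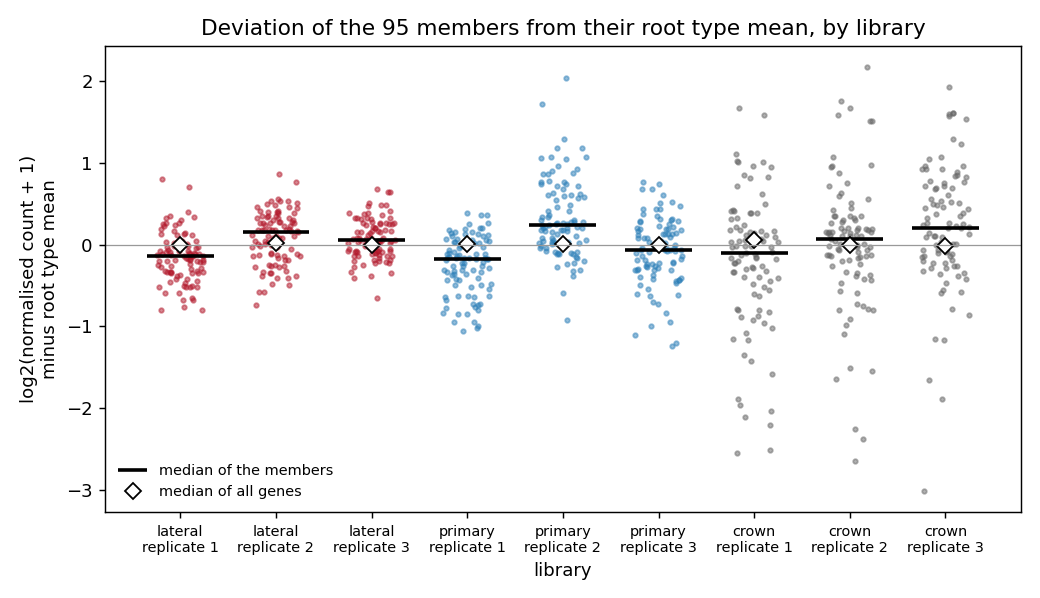
Deviation of log2(normalised count + 1) of the 95 genes from the mean of their own root type (vertical axis), in each of the 9 libraries (horizontal axis). Points are genes, black bars the median of the 95 genes and open diamonds the median of all 19754 genes. The bar of primary root replicate 2 lies at 0.24 and that of crown root replicate 3 at 0.20, while the diamonds stay between -0.02 and 0.05.

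**Figure D4:**
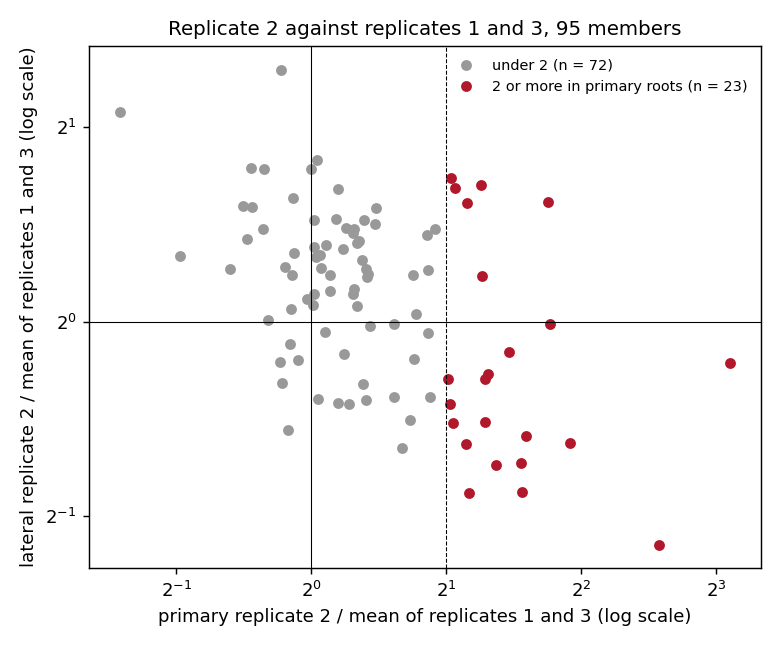
Ratio of replicate 2 to the mean of replicates 1 and 3 in primary roots (horizontal axis) and in lateral roots (vertical axis) for the 95 genes, both on log scales. Red points are the 23 genes with a ratio of at least 2 in primary roots, whose median ratio in lateral roots was 0.81, and grey points are the other 72, whose median ratio in lateral roots was 1.203.

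Several of the 95 genes had close ID numbers. With a difference of at most 3 between successive numbers, 14 genes fell into 6 runs, and 11 genes had another of the 95 as the next number in either direction. The deposited table does not place IDs on the genome, and whether such genes are neighbours or near-identical copies among which reads could be split was not checked. Genes of a run differed in level, and some of them had alike profiles over the libraries. Pgl_GLEAN_10014534 had 14328, 21990 and 17260 in lateral roots, 2942, 5569 and 2968 in primary roots and 211, 367 and 220 in crown roots. Pgl_GLEAN_10014535 had 8397, 11850 and 8984, then 1588, 2831 and 1533, then 115, 196 and 103 in the same libraries. Replicate 2 was the highest of its root type in all 3 root types for both genes, and their steps were 3.82 and 3.84 from crown to primary and 2.27 and 2.34 from primary to lateral roots.

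The run of Pgl_GLEAN_10018088, Pgl_GLEAN_10018090 and Pgl_GLEAN_10018091 had means of 19489, 22354 and 53737 in lateral roots, 2460, 3245 and 9444 in primary roots and 256, 449 and 1453 in crown roots. In each of these 3 genes, primary root replicate 1 was the lowest primary root library and crown root replicate 2 the lowest crown root library, unlike most of the 95 genes in the latter case. A gene next in number, Pgl_GLEAN_10018092, had close values, with means of 23914, 4018 and 684 in the same order, but failed the selection because its primary root replicate 1, at 1810, was less than 2 times its crown root replicate 3, at 1198.

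In the other runs the levels were farther apart. Pgl_GLEAN_10005677, after the 2 most abundant genes, had a mean of 17843 in lateral roots, 3382 in primary roots and 162 in crown roots. Pgl_GLEAN_10005016 had 705, 131 and 17.2 beside the 21455, 6869 and 1772 of Pgl_GLEAN_10005017. Pgl_GLEAN_10033156 had 1080, 149 and 20.1 beside the 51966, 9751 and 2697 of Pgl_GLEAN_10033153, and Pgl_GLEAN_10033624 had 3809, 859 and 331 beside the 18971, 4666 and 1268 of Pgl_GLEAN_10033625. The lower gene of each of these last 3 pairs had the wider difference between lateral and crown roots in the first 2 pairs and the narrower one in the third.

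**Figure D5:**
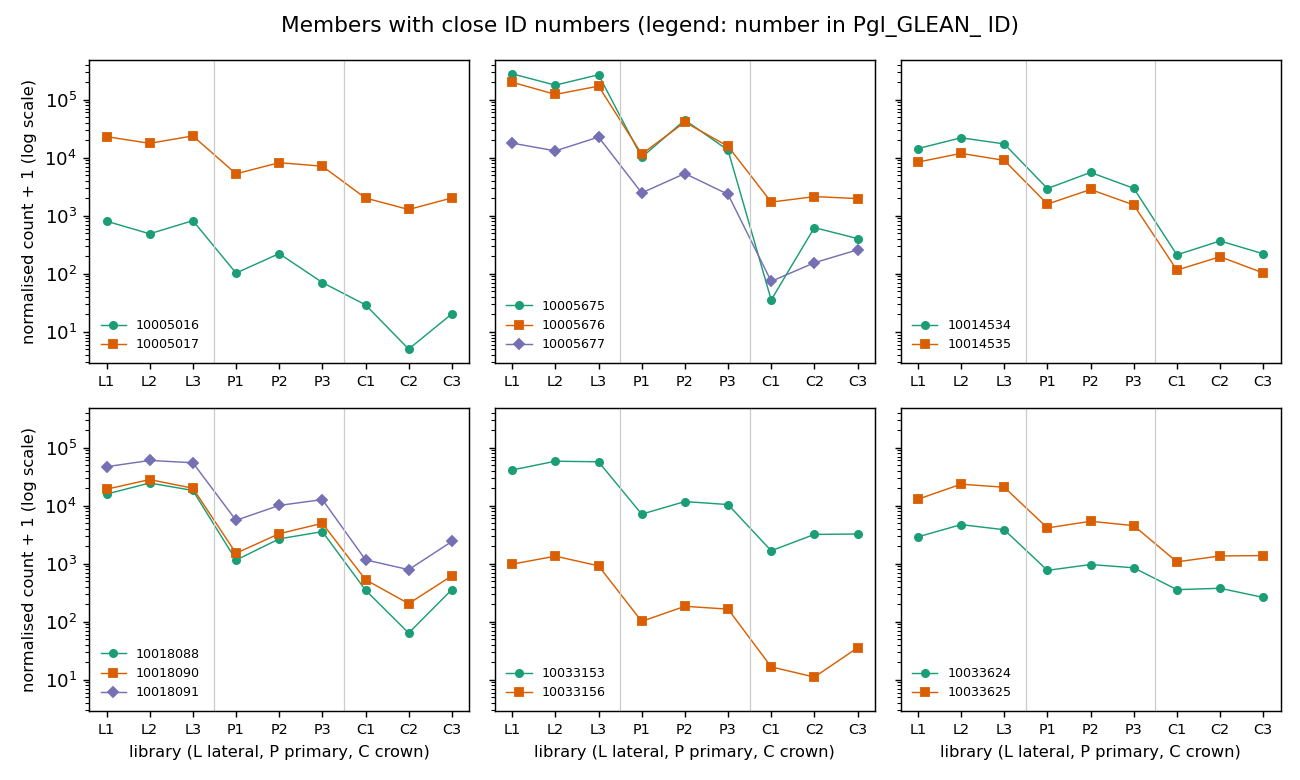
Normalised count + 1 (log scale) in the 9 libraries, in the order lateral, primary and crown root replicates 1 to 3, for the 14 genes in 6 runs of close ID numbers, 1 panel per run. Within the panel of Pgl_GLEAN_10014534 and Pgl_GLEAN_10014535 the lines run side by side, with steps of 3.82 and 3.84 from crown to primary roots, while in the panel of Pgl_GLEAN_10005675 and Pgl_GLEAN_10005676 they meet in primary roots and part in crown roots.

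Genes with a number next to one of the 95 but not among them were 99. Of these, 26 had a lateral root mean at least 1 above the crown root mean on the log2 scale, as did 14.7% of all genes. In 13 of the 99 every lateral root library lay above every primary root library and every primary root library above every crown root library, against 4.66% of all genes. Over the 99 genes the median difference between lateral and crown roots was 0.12. The 99 leave out the adjacent genes that met the selection.

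At each of the 2 gaps, the limit of the selection fell among genes with close ratios, although their counts differed. Pgl_GLEAN_10028652 was just inside the limit between lateral and primary roots, with its lowest lateral root library 2.02 times its highest primary root library. Pgl_GLEAN_10028200, just outside, had lateral root counts of 640, 392 and 350, primary root counts of 154, 173 and 175 and crown root counts of 24.0, 36.5 and 24.8, and a ratio of 1.999. For the limit between primary and crown roots, Pgl_GLEAN_10033004 was inside with a ratio of 2.03. Outside it were Pgl_GLEAN_10032140 with 1.998 and Pgl_GLEAN_10027049 with 1.93. Pgl_GLEAN_10027049 had 0, 0 and 87.4 in crown roots, so its ratio rests on the 1 crown root library above 0. For the minimum in lateral roots, Pgl_GLEAN_10038575 was inside with a lowest lateral root count of 102 and Pgl_GLEAN_10003473 outside with 81.7.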

How the data were processed

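RNA-seq reads were processed by the authors, who cleaned them with CutAdapt (version 3.1), mapped them to the pearl millet genome ASM217483v2 with Hisat2 (version 2.0.1), assembled transcripts with Stringtie (version 1.3.4) guided by coding sequences, and normalised counts with the DESeq2 method at a minimal count sum of 90. The deposited signal is the normalised count, a count divided by 1 factor per library. Every value was a whole multiple of 1 step per library (tolerance 0.1 of a step). Among low counts, multiples of 4 were in excess. A count may therefore not equal a read, and no counting interval is given.

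Root type and replicate of each column were taken from the labels, and 0 columns were left unassigned. Replicates were pools of plants, and nothing states that they came from separate experiments. Levels are means of 3 replicates. Steps and standard errors were obtained from limma (version 3.58.1, R 4.3.3) with its mean-variance trend, applied to log2(normalised count + 1) in 1 fit of 19754 genes and 9 libraries. The scripts were tested on simulated data. This scale understates the change of low genes.

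The 95 genes and the lists were chosen with earlier results of these data known. Named genes are the 6 with the widest lateral minus crown difference, the 4 widest of each step, the 4 highest in lateral and in crown roots, the 3 with most equal steps and the 3 with the highest lateral coefficient of variation, 20 in all, plus examples at each limit and the runs of close ID numbers. Alternatives were other multiples, minimums, pseudocounts, scalings, a replicate block and each library left out. The restriction to genes with no crown root library at 0 was added after the values were seen.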

Additional observations from a re-analysis of the deposited data

How the results depend on the processing

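The number of selected genes depended on the selection. It was 204 with a multiple of 1.5 at each step, 21 with a multiple of 3, and 432 with root type means in place of the lowest and highest library. The other alternatives kept it within 1.5 times of 95, with 105 genes at equal library totals, 76 after quantile normalisation and 100 to 128 with single libraries left out, where fewer libraries had to meet the conditions. Membership moved more than this number, since 92 of the 95 genes were selected at equal totals and 71 of them after quantile normalisation. At equal totals the median difference between primary and crown roots over all genes was 0.20, against 0.02 in the deposited values. The median steps and the number of genes with the larger step between crown and primary roots stayed within the replicate spread or within 1.5 times, although the latter ranged from 50 to 72 with single libraries left out and was 74 at equal totals and 55 after quantile normalisation. Whether libraries with the same replicate number came from the same plants is not stated. Of the 9 pairs of such libraries 1 correlated above 0.1, and the lowest correlation was -0.16. These values cannot decide the question. With a replicate block the median standard error of a step was 0.357, against 0.372 without it. Crown root levels near 0 limit the step from crown to primary roots.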

Other observations

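A further 5 genes had the same gaps with every crown root library listed at 0, and no ratio to crown roots is given for them. Pgl_GLEAN_10036071 had 931, 829 and 512 normalised counts in lateral roots and 159, 117 and 142 in primary roots. Pgl_GLEAN_10017784 had 796, 699 and 700 in lateral roots and 21.1, 167 and 24.1 in primary roots, again with a high primary root replicate 2. Pgl_GLEAN_10022468 had 354, 357 and 397 in lateral roots and 20.2, 104 and 16.5 in primary roots, with the same high library, while Pgl_GLEAN_10035424 had 287, 359 and 532, then 43.0, 101 and 52.1. Pgl_GLEAN_10035455 had 118, 177 and 143 in lateral roots and 20.2, 7.09 and 11.4 in primary roots, with replicate 2 the lowest.

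The 13 genes with the opposite order had a median level of 1157 in crown, 314 in primary and 48.2 in lateral roots. Their median step was 2.08 from primary up to crown roots and 2.92 from lateral up to primary roots. The widest steps were those of Pgl_GLEAN_10014440, with means of 10864, 712 and 24.5 in crown, primary and lateral roots, a gene chosen for mention after its values were seen.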
